A study of Mus musculus with 50 samples.

Results

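The higher of the upper doses of 4Ei-1 was compared with the lower one: NIH 3T3 cells, a mouse fibroblast line, given 200 µM against 50 µM of this eIF4E inhibitor for 4 h. All cultures compared were of the derivative in which mifepristone, a steroid, induces eIF4E, and all received mifepristone. Each dose had 3 cultures, replicates 1 to 3. From every culture polysome-associated RNA (the fraction titled heavy on the gradient) and total RNA were each hybridised to an Illumina bead array, which gave 12 of the 50 arrays of the series. The arrays were chosen by their titles. At each dose replicate 1 was in processing batch 1 and replicates 2 and 3 in processing batch 2, so the batch was shared equally by both doses. The 3 cultures at 100 µM had the same layout and are given as a description. All 3 groups shared the inducible line, mifepristone and 4 h of treatment, and neither 4Ei-4 nor the non-inducible line entered the difference, although their cultures contributed to its error. The labels do not say whether the line is 1 clone, nor whether replicates were grown separately, so p-values measure a spread among cultures that may be technical. That spread was estimated over all 25 cultures of the series, which include other doses, 4Ei-4 and the non-inducible line.

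eIF4E binds the cap at the 5′ end of mRNAs and, as part of the eIF4F complex with the scaffold eIF4G and the helicase eIF4A, recruits the small ribosomal subunit. The 4E-binding proteins compete with eIF4G for eIF4E. mRNAs of growth and survival genes such as Myc and Ccnd1 are known for their sensitivity to eIF4E, and mRNAs of ribosomal proteins carry a terminal oligopyrimidine tract (TOP) that ties their translation to growth signals. The comparison asks which mRNAs differ in amount or in ribosome loading between a moderate and a high dose of the inhibitor.

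Translational efficiency was the log2 value of polysome RNA minus that of total RNA of the same culture. Differences are 200 minus 50 µM on the log2 scale, ± SE, from limma over 12644 genes. A gene was called where the Benjamini-Hochberg adjusted p was below 0.05, and every adjusted p is limma's. Mean intensity of the 12 arrays was 197 to 348 and the share of probes detected was 23.9% to 32.3%, where detected means a deposited detection p below 0.05. Arrays of a fraction correlated at 0.853 to 0.977 for polysome RNA and at 0.921 to 0.985 for total RNA, and no 2 arrays held identical values. The polysome array of 50 µM replicate 1 stood furthest apart, at 0.853 to 0.919 with the others. All 11 fibroblast markers on the array were detected, 9 of them on all 12 arrays. Of the markers of other cells, 4 of 8 for macrophages and leukocytes, 4 of 9 for epithelium and 1 of 7 for endothelium were detected on any array, and the defining genes Ptprc, Epcam and Pecam1 on none.

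Eif4e (gene ID 13684), the gene under induction and the inhibitor's target, was detected on 1 of the 12 arrays by its probe, so its differences have no measured level behind them. They were -0.09 ± 0.31 in efficiency (adjusted p = 0.934), -0.32 ± 0.24 in polysome RNA (adjusted p = 0.63) and -0.22 ± 0.19 in total RNA, where the adjusted p was 0.798. The array therefore gave no check of the induction at either dose.

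Between the doses 30 genes were called in translational efficiency, 14 higher and 16 lower at 200 µM, which is 0.237% of the genes tested. Among the best measured of them, the mRNAs of the ESCRT-I subunit Vps37c and the Groucho corepressor Tle2 had a higher efficiency at 200 µM and the mRNA of the mitochondrial ribosomal protein Mrpl16 a lower one. These were the 3 called genes among the 5064 detected on all 12 arrays (0.0592%). With the p-values of the same fit adjusted over these 5064 genes alone, 0 passed. Of the 30 called genes, 18 were detected on at most 6 of the 12 arrays, and 11 were detected in both fractions at both doses. For the other 19 at least one of the levels behind the difference was not above background, so the size of its difference was not measured. Leaving out 1 culture raised the count, to 128, 47 and 47 without 50 µM replicate 1, 2 or 3 and to 74, 106 and 78 without 200 µM replicate 1, 2 or 3. A fit without 1 culture loses the batch balance, so its difference also leans on batch terms estimated in part from other groups.

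Vps37c (gene ID 107305) takes part in sorting membrane proteins into multivesicular bodies. Its efficiency was 1.09, 0.36 and 0.62 in replicates 1 to 3 at 50 µM. It was 2.22, 0.77 and 1.36 at 100 µM and 2.65, 1.63 and 2.32 at 200 µM. Every culture at 200 µM lay above every culture at 50 µM. The mean at 100 µM lay between the others, with values that overlapped both groups. The difference was 1.51 ± 0.27 (adjusted p = 0.0154), at 1.57 in batch 1 and 1.48 in batch 2. Both fractions contributed, with a polysome RNA difference of 0.73 ± 0.17 (adjusted p = 0.0933) and a total RNA difference of -0.78 ± 0.22 (adjusted p = 0.23), neither of which passed on its own. Vps37c was called in all 6 analyses that left out 1 culture, with differences of 1.32 to 1.69. It did not pass without both cultures with little collagen mRNA on polysomes (1.22, adjusted p = 0.0908), and in the authors' log2 values its difference was 0.55 (adjusted p = 0.0559).

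Tle2 (gene ID 21886) encodes a corepressor recruited by transcription factors of several families. Its efficiency at 50 µM was 0.57, 0.98 and 1.29. At 100 µM it was 1.69, 1.12 and 1.30, and at 200 µM 2.11, 2.05 and 2.11. The cultures at 200 µM lay close together and above all those at 50 µM. The difference of 1.15 ± 0.24 (adjusted p = 0.0477) was 1.53 in batch 1 and 0.95 in batch 2, and it passed in 2 of the 6 analyses without 1 culture. Without 50 µM replicate 1 it had an adjusted p of 0.0951, and in the authors' log2 values the difference was 0.71 (adjusted p = 0.0559).

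Mrpl16 (gene ID 94063) is a protein of the large subunit of the mitochondrial ribosome. Its efficiency was 1.27, 1.50 and 2.20 at 50 µM, 0.63, 0.71 and 0.59 at 100 µM and 0.79, -0.03 and 0.08 at 200 µM. Every culture at 100 and 200 µM lay below every culture at 50 µM. The difference was -1.37 ± 0.27 (adjusted p = 0.0312), but -0.47 in batch 1 against -1.82 in batch 2. Most of it was in total RNA, at 7.33, 5.88 and 5.37 at 50 µM and 7.83, 6.88 and 7.09 at 200 µM, a difference of 1.08 ± 0.22 (adjusted p = 0.0749). The polysome difference was -0.30 ± 0.19 (adjusted p = 0.542). The efficiency call passed in 3 of the 6 analyses without 1 culture, and in the authors' log2 values the difference was -0.43 (adjusted p = 0.129).

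The next genes by p among those detected on all 12 arrays did not pass. Ncdn (gene ID 26562), neurochondrin, a protein first studied in neurons, had an efficiency of 0.93, 0.97 and 0.97 at 50 µM, 1.59, 1.98 and 1.49 at 100 µM and 2.25, 1.87 and 2.01 at 200 µM. The 3 doses did not overlap except that the highest value at 100 µM exceeded the lowest at 200 µM, and the difference was 1.09 ± 0.23 (adjusted p = 0.0544). Etfa (gene ID 110842), a subunit of the mitochondrial electron transfer flavoprotein, gave 0.57, 0.86 and 1.04 at 50 µM and -0.44, 0.21 and -0.02 at 200 µM, without overlap, and -0.91 ± 0.20 (adjusted p = 0.0577). Surf2 (gene ID 20931) gave -0.99 ± 0.23 (adjusted p = 0.0704) and is described with polysome RNA.

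**Figure D1:**
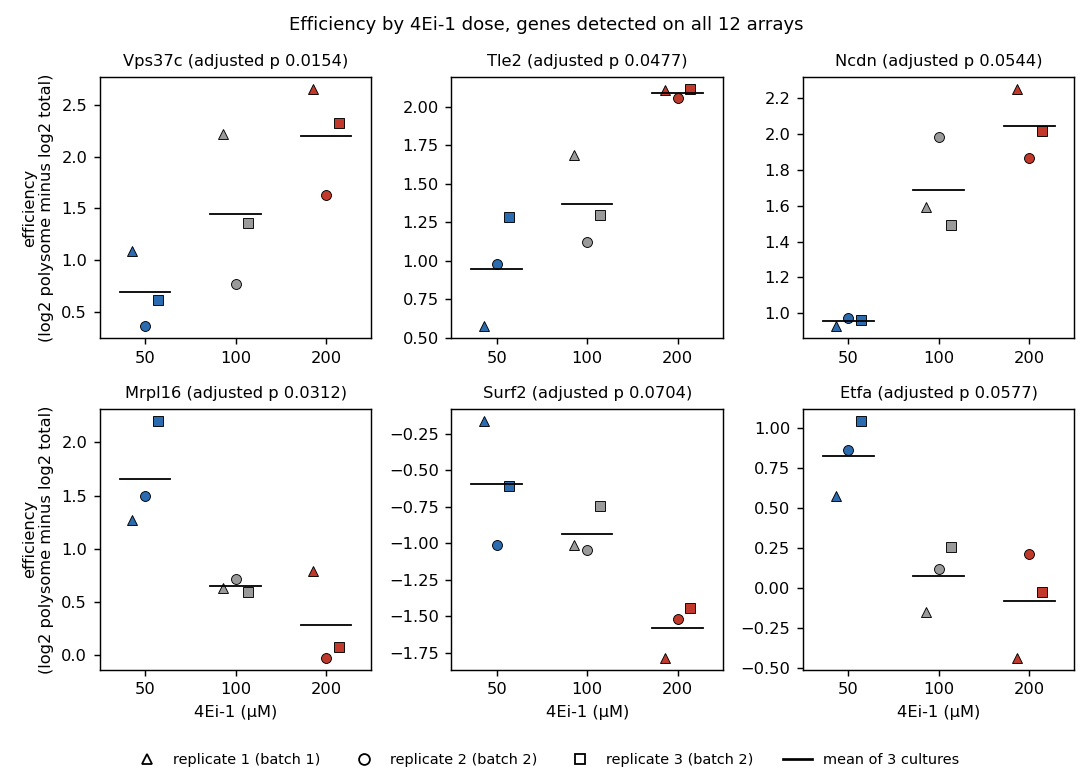
Translational efficiency (log2 polysome minus log2 total RNA, y axis) of Vps37c, Tle2, Ncdn, Mrpl16, Surf2 and Etfa by dose of 4Ei-1 in µM (x axis), with a point per culture, its shape giving the replicate and batch, and a line through the means of 3 cultures. Values at 200 µM lie above all those at 50 µM for the first 3 genes and below all of them for the others; only Vps37c, Tle2 and Mrpl16 passed the test.

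Among called genes not detected on all arrays, the smallest p belonged to Ino80, Rasa2 and Calcoco1. Ino80 (gene ID 68142), the ATPase of the INO80 chromatin remodeller, had an efficiency of 1.15, 2.24 and 2.47 at 50 µM and -0.12, 0.65 and 0.09 at 200 µM (adjusted p = 0.00354). It was detected on 6 arrays: 3 polysome arrays and no total RNA array at 50 µM, and 1 polysome and 2 total RNA arrays at 200 µM, so these values give a call but no size. The efficiency of Rasa2 (gene ID 114713), a GTPase-activating protein of Ras, was 1.22, 0.97 and 1.15 at 50 µM and -0.30, -0.94 and -0.29 at 200 µM (adjusted p = 0.00875). Rasa2 was detected on 6 arrays and on none of the polysome arrays at 200 µM, which likewise leaves no size. In the authors' log2 values Ino80 differed by -0.31 (adjusted p = 0.0559) and Rasa2 by -0.29 (adjusted p = 0.162). Calcoco1 (gene ID 67488), a coiled-coil coactivator also known as a receptor in selective autophagy, was detected on 11 arrays. Its efficiency was 1.24, 1.45 and 1.29 at 50 µM and 2.48, 2.85 and 2.97 at 200 µM, a difference of 1.44 ± 0.23 (adjusted p = 0.0134), against 0.49 (adjusted p = 0.0856) in the authors' log2 values. For all 3 genes the groups did not overlap.

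In all 30 called genes the efficiency of the 200 µM cultures lay entirely on one side of the 50 µM cultures. Over all genes tested 4.85% lay entirely above and 4.14% entirely below. The mean at 100 µM lay between those of the other doses for 26 of the 30, against 36.4% of all genes. The 50 and 200 µM means of called genes were chosen to be far apart. More groups therefore do not overlap, more of the 100 µM means fall between the others, and both counts are a description. The polysome and total RNA differences of these genes had opposite signs in 28 of 30, which a test of their difference favours. The polysome difference was the larger in size for 18 genes and the total RNA difference for 12, with median sizes of 0.88 and 0.62.

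The calls were few beside the spread. The unadjusted p of 1681 genes (13.3%) was below 0.05, and the median half-width of the 95% interval was 0.62, so a difference of that size in a single gene was within the error. The interval lay within 1 of 0 for 58.2% of genes. The fit took its spread from all 25 cultures of the series; with the 6 compared cultures alone no gene passed in any of the 3 measures, and 453, 396 and 378 had an unadjusted p below 0.05 in efficiency, polysome and total RNA.

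Polysome RNA alone gave 31 called genes, 14 higher and 17 lower at 200 µM (0.245% of those tested). Hps6, a subunit of the BLOC-2 complex for lysosome-related organelles, was higher, and Ankrd12, an ankyrin repeat protein, and Surf2, a gene of the surfeit cluster, were lower. These 3 were the called genes detected on all 12 arrays (0.0592% of such genes), and 20 of the 31 were detected on at most 6. With p-values adjusted over the genes detected on all 12 arrays alone, 0 passed. In 23 called genes the polysome level was undetected on every array of 1 dose. Polysome RNA and efficiency share the polysome arrays, so the 9 genes called in both are not independent evidence. The count was 109, 26 and 129 without 50 µM replicate 1, 2 or 3, and 69, 68 and 56 without 200 µM replicate 1, 2 or 3.

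Hps6 (gene ID 20170) stood at 8.14, 6.82 and 6.47 on the polysome arrays at 50 µM, 8.96, 7.10 and 6.72 at 100 µM and 9.34, 7.47 and 7.67 at 200 µM. Replicate 1, of batch 1, was the highest at each dose and the groups overlapped. Within each batch every culture at 200 µM lay above every one at 50 µM. The difference was 1.02 ± 0.21 (adjusted p = 0.0417), with 1.20 in batch 1 and 0.93 in batch 2. In total RNA it was 0.03 ± 0.33 (adjusted p = 0.991) and in efficiency 0.99 ± 0.27 (adjusted p = 0.117). The call passed in 2 of the 6 analyses without 1 culture, and its adjusted p was 0.102 without 50 µM replicate 1. In the authors' log2 values the polysome differences of Hps6, Ankrd12 and Surf2 were 0.53, -0.33 and -0.40, with adjusted p of 0.112, 0.118 and 0.134.

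Ankrd12 (gene ID 106585) measured 6.44, 7.57 and 7.52 on polysomes at 50 µM and 5.76, 6.55 and 6.27 at 200 µM. Replicate 1 at 50 µM lay below the highest culture at 200 µM, the only overlap. The difference was -0.98 ± 0.19 (adjusted p = 0.0373), and total RNA gave -0.00 ± 0.24 (adjusted p = 0.998). Ankrd12 was called in 4 of the 6 analyses without 1 culture.

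Surf2 measured 8.06, 7.42 and 7.51 on polysomes at 50 µM, 7.45, 7.32 and 7.30 at 100 µM and 6.83, 6.91 and 6.71 at 200 µM. All cultures at 200 µM lay below all others. The difference was -0.85 ± 0.17 (adjusted p = 0.0458), -1.22 in batch 1 and -0.66 in batch 2, against 0.14 ± 0.16 in total RNA (adjusted p = 0.868). It passed in 2 of the 6 analyses without 1 culture, and without 50 µM replicate 1 had an adjusted p of 0.109. The next 3 genes by p did not pass: Arhgap24, a GTPase-activating protein of Rac, at -0.78 ± 0.17 (adjusted p = 0.062), Setbp1 at -0.996 ± 0.217 (adjusted p = 0.0648) and the cohesin subunit Stag2 at -0.74 ± 0.16 (adjusted p = 0.0776).

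The smallest polysome p of all belonged to genes whose level at 200 µM was not above background. Rpf2 (gene ID 67239), an assembly factor of the large ribosomal subunit, was detected on 3 of 3 polysome arrays at 50 µM, with 5.68, 6.34 and 6.13, and on none at 200 µM, with 4.53, 4.50 and 4.56. It was at least 1.55-fold lower at 200 µM (adjusted p = 0.00333), where the bound sets the bright group's mean against the lowest signal of detected probes on the dim arrays. Prkaa1 (gene ID 105787), the α1 catalytic subunit of the energy sensor AMPK, measured 5.77, 6.001 and 5.83 at 50 µM against 4.57, 4.47 and 4.59 at 200 µM. It was at least 1.36-fold lower (adjusted p = 0.00373). Clec1a (gene ID 243653), a C-type lectin receptor, was at least 1.31-fold lower (adjusted p = 0.00559), from 5.38, 6.23 and 5.83 to 4.51, 4.80 and 4.47. The groups did not overlap for any of these 3 genes.

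Of the 31 genes called on polysomes, 26 had groups that did not overlap, against 3.37% of all genes entirely above and 2.71% entirely below. The 100 µM mean lay between the others for 26 of 31, against 39.7% of all genes. Both counts are favoured by the choice of these genes on the same values and are a description. The unadjusted p was below 0.05 for 1562 genes (12.4%) and the median half-width of the 95% interval was 0.49.

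Total RNA gave 5 called genes (0.0395% of those tested), 3 higher (0.0237%) and 2 lower (0.0158%) at 200 µM, all undetected on every total RNA array of 1 dose. Tagap1 (gene ID 380608), a GTPase-activating protein, measured 6.05, 5.36 and 5.67 at 50 µM and 4.91, 4.65 and 4.62 at 200 µM and was at least 1.32-fold lower (adjusted p = 0.0295). Rb1cc1 (gene ID 12421), the autophagy initiation protein FIP200, measured 4.95, 5.89 and 5.79 against 4.63, 4.34 and 4.54 and was at least 1.19-fold lower (adjusted p = 0.0463), and it was detected on 2 of the 12 arrays. Zfp36l3 (gene ID 333473), an RNA-binding zinc finger protein, measured 4.60, 4.40 and 4.60 against 4.99, 5.97 and 5.82 and was at least 1.29-fold higher (adjusted p = 0.0295). Parp11, an ADP-ribosyltransferase, and Dse, an epimerase of dermatan sulfate, both chosen after their values were seen, were at least 1.03-fold and 1.15-fold higher (adjusted p = 0.0463 for each). The groups did not overlap in any of the 5 genes, against 3.02% of all genes entirely above and 2.63% entirely below. For 3 of 5 the 100 µM mean lay between the others, against 32.2% of all genes. Here too the genes were chosen on these values, so the counts are a description. With the replicate number as a block over the 6 compared cultures alone no gene passed in total RNA, and 406 genes had an unadjusted p below 0.05. These 6 cultures gave no called gene without the block either, so the lack of calls does not show an effect of pairing. The count was 66, 9 and 1 without 50 µM replicate 1, 2 or 3 and 55, 75 and 19 without 200 µM replicate 1, 2 or 3.

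No gene detected on all 12 arrays passed in total RNA. After Mrpl16 the smallest p were those of Tmem87a, a membrane protein of the Golgi, at -0.84 ± 0.19 (adjusted p = 0.104), and Slc6a8 (gene ID 102857), the creatine transporter. Slc6a8 measured 10.25, 10.07 and 10.47 at 50 µM and 9.58, 9.72 and 9.33 at 200 µM, without overlap, a difference of -0.72 ± 0.17 (adjusted p = 0.117). Thymidylate synthase, Tyms (gene ID 22171), which makes the thymidine nucleotide for DNA synthesis, measured 8.01, 7.41 and 7.91 against 8.95, 8.33 and 8.37. Its groups did not overlap either, and the difference was 0.77 ± 0.19 (adjusted p = 0.151). The TFIID subunit Taf5 had 0.84 ± 0.21 (adjusted p = 0.151) and the DNA sensor Cgas 0.71 ± 0.19 (adjusted p = 0.187). The median half-width was 0.43, and 1042 genes (8.24%) had an unadjusted p below 0.05.

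**Figure D2:**
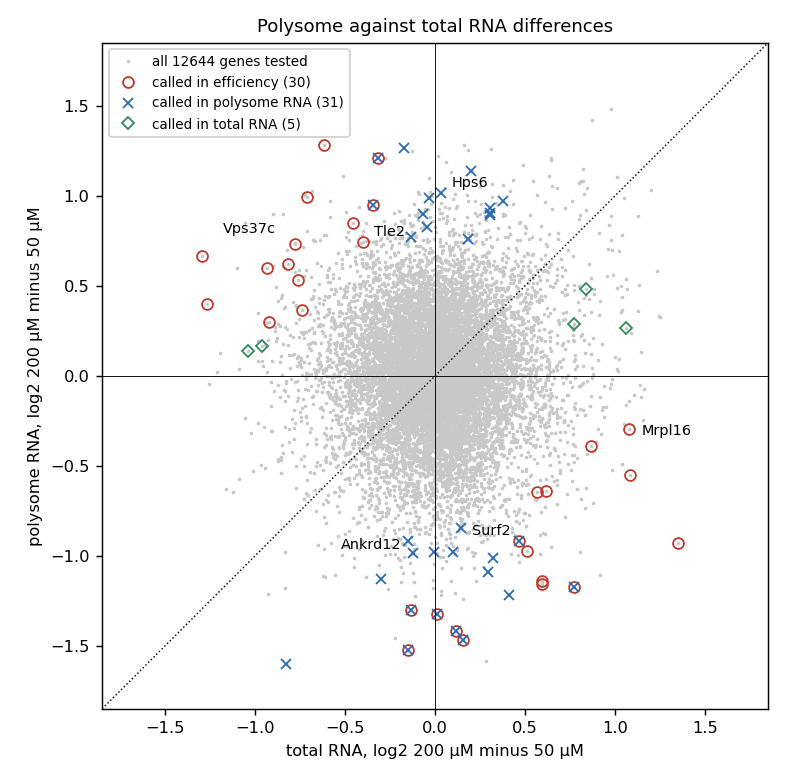
Difference in total RNA (x axis) against difference in polysome RNA (y axis), both log2 200 minus 50 µM, for the 12644 genes tested, with the 30 genes called in efficiency, the 31 called in polysome RNA and the 5 called in total RNA marked. The dotted line stands for equal change in both fractions; genes called in efficiency lie away from it, 28 of 30 with opposite signs on the axes.

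Of 33 gene lists described, 1 held a called gene, Mrpl16 among the mitochondrial ribosomal proteins. Each list is given by its median difference, beside medians over all genes of 0.00 in efficiency and 0.01 in polysome and in total RNA. Over all genes 50.1%, 51.5% and 51.6% were above 0 in these measures. The unadjusted p was below 0.05 for 13.3%, 12.4% and 8.24% of all genes, to be set beside the counts of list members. A list's median is not tested, and nothing particular to a list follows from it or from these counts.

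The eIF4F complex and its regulators (18 genes tested) had median differences of -0.14 (efficiency), -0.16 (polysome RNA) and -0.02 (total RNA), and 6, 6 and 8 members were above 0. No member passed, and 3, 1 and 2 had an unadjusted p below 0.05. Mknk2, a kinase that phosphorylates eIF4E, had an efficiency of 0.24, 0.57 and 0.25 at 50 µM and 1.34, 0.68 and 1.23 at 200 µM. The groups did not overlap, and the difference was 0.74 ± 0.23 (adjusted p = 0.167). Eif4g2, an eIF4G relative that lacks the eIF4E-binding region, had -0.13, 0.20 and -0.26 against -1.65, -0.87 and -0.16, with 1 culture at 200 µM among those at 50 µM, and a difference of -0.83 ± 0.30 (adjusted p = 0.24). The helicase Eif4a1 had -0.13 ± 0.23 (adjusted p = 0.869) and the 4E-binding protein Eif4ebp1 0.07 ± 0.37 (adjusted p = 0.958), both chosen for their role.

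mRNAs classically sensitive to eIF4E (24 tested) had medians of -0.12, 0.13 and 0.08 in efficiency, polysome and total RNA, with 11, 15 and 15 members above 0; the polysome median was -0.01 with the arrays scaled to 1 median. No member passed, and 3, 4 and 1 had an unadjusted p below 0.05. The efficiency of Ccnd1, cyclin D1, was 1.22, 0.88 and 1.15 at 50 µM and 1.56, 1.17 and 1.07 at 200 µM, overlapping, with a difference of 0.19 ± 0.21 (adjusted p = 0.757). Myc, detected on 9 arrays, had -0.45 ± 0.25 (adjusted p = 0.458), and Odc1, the first enzyme of polyamine synthesis, -0.12 ± 0.22 (adjusted p = 0.865). For Vegfa, the vascular growth factor, efficiency was -0.38, -0.39 and -0.52 at 50 µM and -1.07, -1.19 and -0.75 at 200 µM, without overlap, with a difference of -0.58 ± 0.30 (adjusted p = 0.423). These 4 were chosen for their place in the literature on eIF4E. The smallest p in the list were those of the kinase Pim1, detected on 4 arrays and on none of the polysome arrays at 200 µM (adjusted p = 0.0704, with no measured size), and the cytokine Tgfb1 at 0.72 ± 0.23 (adjusted p = 0.179), both in efficiency. Tgfb1 was at -0.01, 0.26 and 0.10 at 50 µM and 0.90, 0.71 and 0.91 at 200 µM, without overlap.

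mRNAs of cytosolic ribosomal proteins (54 tested) had a median efficiency difference of 0.09, with 37 above 0, but -0.37 in batch 1 and 0.30 in batch 2. The sign thus differed between the batches. The other TOP mRNAs (19 tested) had median differences of -0.13 (efficiency), -0.17 (polysome RNA) and -0.02 (total RNA), and 5, 5 and 8 were above 0. No member of either list passed; 1, 2 and 1 of the ribosomal proteins and 3, 2 and 1 of the other TOP mRNAs had an unadjusted p below 0.05. Npm1 (gene ID 18148), nucleophosmin, a nucleolar chaperone of ribosome assembly, measured 11.97, 12.46 and 12.49 on polysomes at 50 µM, 11.76, 11.63 and 11.85 at 100 µM and 11.38, 11.64 and 11.74 at 200 µM. All cultures at 200 µM lay below all those at 50 µM, and the difference was -0.72 ± 0.16 (adjusted p = 0.0776), with -0.07 ± 0.14 in total RNA (adjusted p = 0.939).

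Genes of the integrated stress response (28 tested) had medians of 0.08, 0.08 and 0.09, and none passed, with 4, 4 and 3 at an unadjusted p below 0.05. Cebpg (gene ID 12611), a partner of the stress factor Atf4, measured 11.13, 11.35 and 11.12 on polysomes at 50 µM and 9.55, 10.60 and 10.82 at 200 µM. The groups did not overlap. The polysome difference was -0.88 ± 0.21 (adjusted p = 0.0922), the efficiency difference -0.96 ± 0.23 (adjusted p = 0.0783) and the total RNA difference 0.08 ± 0.17 (adjusted p = 0.941). In purine and pyrimidine synthesis (22 tested, median efficiency difference -0.12) Impdh1, which commits purines to guanine nucleotides, had an efficiency of 0.66, 0.99 and 0.71 at 50 µM, 2.03, 1.52 and 2.57 at 100 µM and 2.67, 1.56 and 3.21 at 200 µM. The groups at 50 and 200 µM did not overlap, but the spread was wide, at 1.69 ± 0.42 (adjusted p = 0.087). The larger part was in total RNA, at -1.10 ± 0.37 (adjusted p = 0.37), against 0.60 ± 0.21 on polysomes (adjusted p = 0.271). Adss, which turns inosine monophosphate towards adenine nucleotides, had the opposite sign, with -0.68, 0.09 and -0.07 at 50 µM and -2.89, -1.83 and -0.41 at 200 µM, overlapping, and a difference of -1.49 ± 0.43 (adjusted p = 0.139). Of the list 9 members were above 0 in efficiency, 3 had an unadjusted p below 0.05 and none passed.

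Mitosis genes (25 of 36 listed were tested) had the largest list median of polysome RNA, 0.67 with 21 members above 0, and of total RNA, 0.43 with 23 above 0, against 0.05 in efficiency. With the arrays scaled to 1 median the first 2 were 0.30 and 0.31, and in the authors' log2 values 0.13 and 0.12. No member passed, and 4, 5 and 3 had an unadjusted p below 0.05 in efficiency, polysome and total RNA. Within batches 1 and 2 the polysome median was 0.63 and 0.58, and the total RNA median 0.16 and 0.44. The mitotic kinase Plk1 measured 6.87, 5.85 and 7.86 in total RNA at 50 µM and 7.95, 8.14 and 8.08 at 200 µM. Every culture at 200 µM lay above every one at 50 µM, yet the values at 50 µM spread over more than the difference of 1.20 ± 0.62 (adjusted p = 0.641). Cdc20, the activator of the anaphase-promoting complex, measured 8.65, 6.98 and 8.65 at 50 µM against 9.12, 8.80 and 8.79, a difference of 0.81 ± 0.46 (adjusted p = 0.67). The centromere histone Cenpa measured 10.59, 8.47 and 10.62 against 11.03, 10.85 and 10.74, a difference of 0.98 ± 0.46 (adjusted p = 0.588). These 3 were chosen after their values were seen. In each of them 50 µM replicate 2 was the lowest by more than 1. Cdc25b, a phosphatase that activates the mitotic kinase, had the smallest p of the list, 0.98 ± 0.19 in total RNA (adjusted p = 0.0749, detected on 9 arrays), from 5.30, 4.65 and 4.53 to 5.75, 6.07 and 5.62. Its values in replicates 2 and 3 at 50 µM were at levels also seen in undetected genes, so the size is uncertain.

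The list's median rested in part on that culture. Relative to the mean at 50 µM, the median mitosis gene in total RNA stood at 0.43, -0.66 and 0.28 at 50 µM, 0.92, -0.52 and 0.01 at 100 µM and 0.82, 0.53 and 0.39 at 200 µM. On polysomes it stood at 0.14, -0.65 and 0.61, then 0.66, -0.87 and 0.31, then 0.54, 0.81 and 0.26. Replicate 2 was thus low at 50 and at 100 µM in both fractions, and not at 200 µM. Without 50 µM replicate 2 the list's median was 0.24 on polysomes and 0.31 in total RNA. DNA replication genes (35 tested) had a smaller difference of the same kind, with medians of -0.03, 0.20 and 0.21 in efficiency, polysome and total RNA, 16, 26 and 30 members above 0 and none that passed. Of these, 4, 7 and 2 had an unadjusted p below 0.05. Without 50 µM replicate 2 their median was 0.15 on polysomes and 0.09 in total RNA. The part of cell cycle stage in these values was not tested. In bulk RNA more cells in a stage and more mRNA per cell cannot be told apart.

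**Figure D3:**
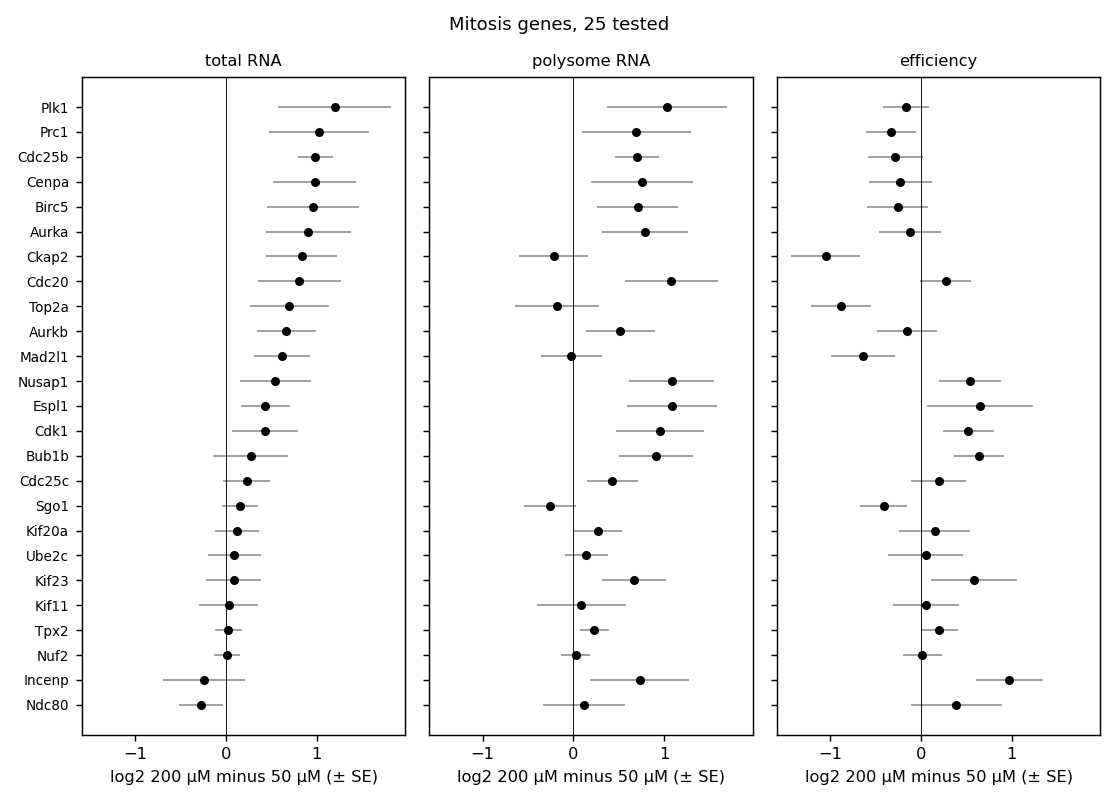
Difference between 200 and 50 µM (log2, x axis) of the 25 mitosis genes tested (y axis) in total RNA, polysome RNA and efficiency, with bars of 1 SE. Most points of total and polysome RNA lie above 0, 23 and 21 of 25, with bars that reach far towards 0, and none passed the test.

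Many promoters of mitosis genes carry the cell cycle homology element, whose core is the letters TTTGAA. Among the 20 tested mitosis genes with a promoter in the RefSeq table (GRCm38.p6), 8 (40%) held TTTGAA on either strand within 250 bases before the start, and 4934 of all 27025 genes (18.3%) did. A match is a description of the letters and not a site or a cause. The windows of 30 bases shown are those of the matching members detected on all 12 arrays with the largest differences in total RNA. Promoters on a single excluded chromosome, and any with undetermined bases, were passed over in choosing the windows. They show the match in its context; 12 of the 20 promoters do not hold it. The capitals mark the match, read 5′ to 3′ along the gene's strand.
Prc1 (chr7:80294434-80294463, plus strand): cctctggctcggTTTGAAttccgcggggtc
Ckap2 (chr8:22185903-22185932, minus strand): gctttgttcgatTTTGAAatttctcgccgg
Cdc20 (chr4:118437344-118437373, minus strand): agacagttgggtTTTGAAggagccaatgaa
Top2a (chr11:99024195-99024224, minus strand): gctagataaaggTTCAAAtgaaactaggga

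In Top2a, the DNA topoisomerase that untangles chromosomes, the capitals are the same letters read on the opposite strand. The total RNA of Prc1, which bundles microtubules of the spindle midzone, was 9.21, 7.21 and 9.79 at 50 µM and 9.89, 9.85 and 9.54 at 200 µM. The difference was 1.02 ± 0.55 (adjusted p = 0.659) in Prc1, 0.83 ± 0.40 (adjusted p = 0.598) in the spindle protein Ckap2 and 0.70 ± 0.44 (adjusted p = 0.705) in Top2a. In all 4 genes the lowest value of the 50 µM cultures was that of replicate 2. On polysomes the differences of Ckap2 and Top2a were -0.22 ± 0.38 (adjusted p = 0.872) and -0.18 ± 0.46 (adjusted p = 0.928), so these 2 were not higher in both fractions.

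Collagens (15 tested), the main fibres of the matrix that fibroblasts lay down, had the widest spread between cultures. The median differences were 0.61 (efficiency), 0.25 (polysome RNA) and -0.28 (total RNA), while 11, 12 and 2 members were above 0. None passed, and 1 member had an unadjusted p below 0.05 in each measure. Within batches the efficiency median was 2.99 in batch 1 and -0.62 in batch 2. Collagen I chain Col1a1 had an efficiency of -3.44, 0.72 and -0.51 at 50 µM and 1.39, -0.78 and -2.72 at 200 µM, with wide overlap, and a difference of 0.37 ± 0.88 (adjusted p = 0.901). It was chosen after its values were seen. The low values were those of the polysome arrays of 50 µM replicate 1 and 200 µM replicate 3, with 8.73 and 8.39 for Col1a1, against 10.49 and 10.57 in the others at 50 µM and 11.59 and 10.56 at 200 µM. The median collagen on polysomes, relative to the mean at 50 µM, was -1.17, 0.55 and 0.56 at 50 µM and 0.86, 0.34 and -0.47 at 200 µM. Without 50 µM replicate 1 the list's median was -0.07 in efficiency and -0.30 on polysomes, and without both cultures, a choice made after seeing the data, 0.33 and 0.11.

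A list of chaperones of the endoplasmic reticulum, where collagens are folded, and genes of the unfolded protein response was split between the batches in the same order. Its 20 tested genes had a polysome median of 0.30, with 0.98 in batch 1 and -0.12 in batch 2. The 13 tested members of the histone list, which does not hold all histone genes, had an efficiency median of -0.35, with -1.41 in batch 1 and 0.16 in batch 2. The 8 mitochondrially encoded mRNAs had a polysome median of -0.35, with 0.22 and -0.72. The sign of each of these medians differed between the batches, and batch 1 held 1 culture a dose. No member of the 3 lists passed in any measure. In efficiency, polysome and total RNA an unadjusted p below 0.05 was held by 1, 2 and 1 members of the first list. It was held by 2, 0 and 1 of the histones and 0, 0 and 1 of the mitochondrial mRNAs. H2ac4, a histone gene outside the list, was called in polysome RNA, undetected at 50 µM and at least 1.22-fold higher at 200 µM (adjusted p = 0.0354). The part of the polysome preparation in these values was not tested. Leaving out both cultures with little collagen mRNA on polysomes gave 123 called genes in efficiency, 115 in polysome RNA and 51 in total RNA.

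**Figure D4:**
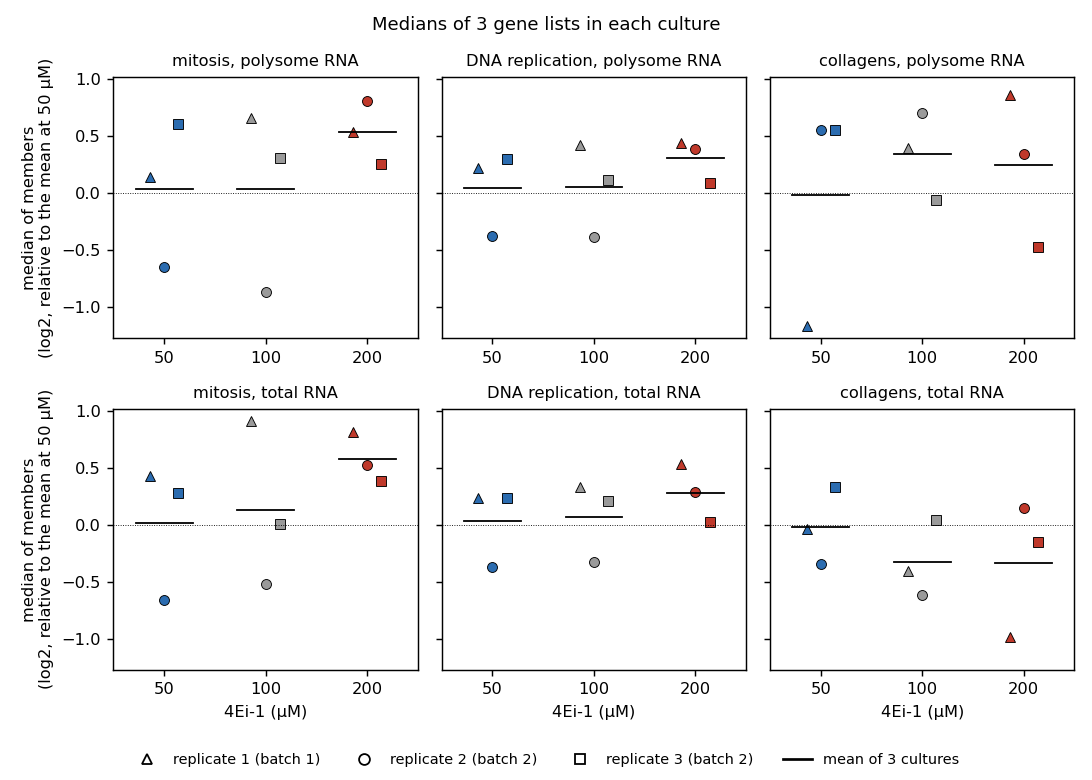
Median log2 level of mitosis, DNA replication and collagen genes in each culture, relative to the mean at 50 µM (y axis), by dose in µM (x axis), in polysome and total RNA, with a point per culture. Replicate 2 is low at 50 and 100 µM for mitosis genes, and replicate 1 at 50 µM, at -1.17, is the lowest for collagens on polysomes.

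**Figure D5:**
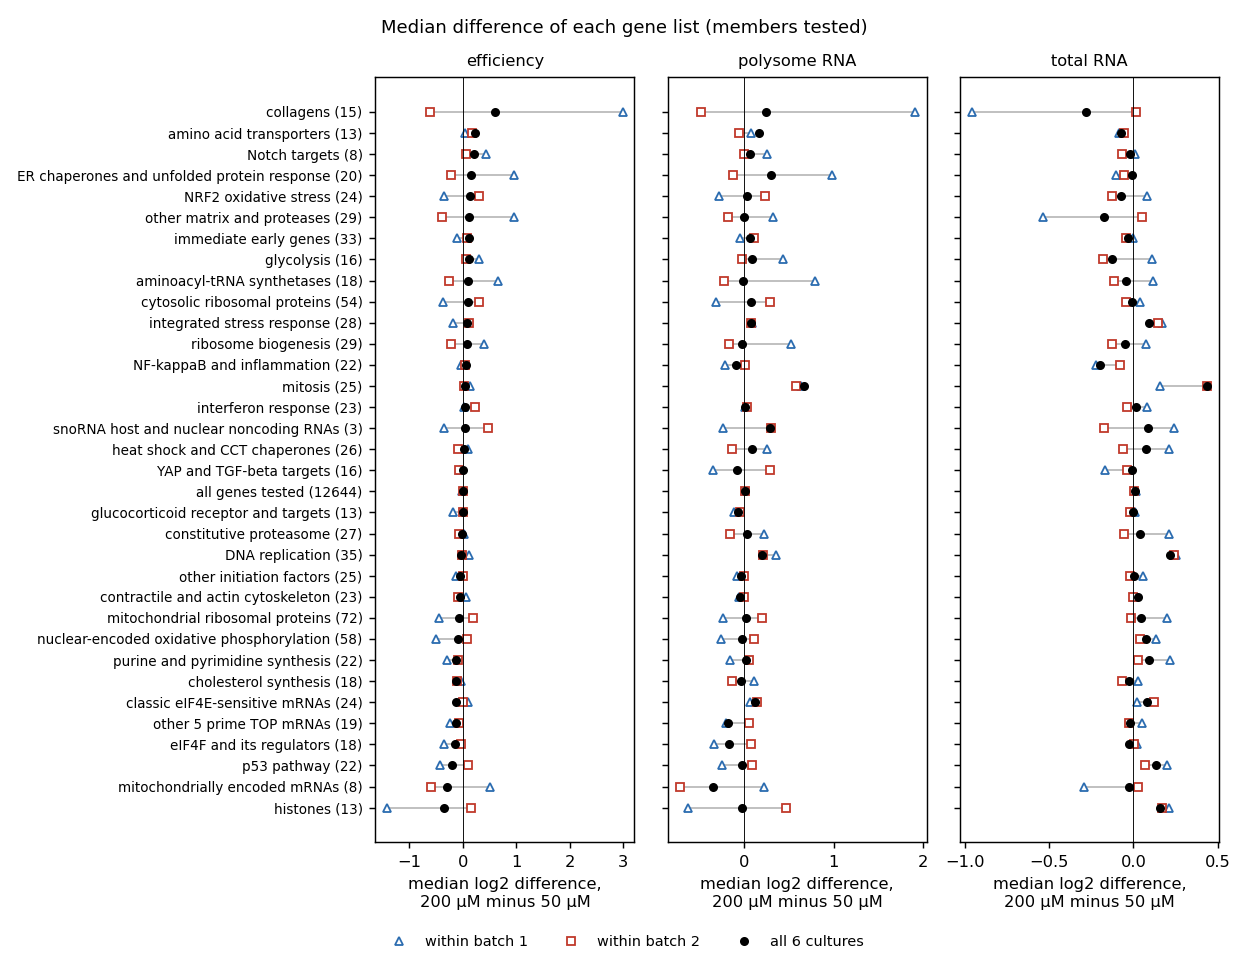
Median difference between 200 and 50 µM (log2, x axis) of the 33 lists and of all genes (y axis) in efficiency, polysome and total RNA, with the medians within batch 1 and batch 2 beside each. Mitosis genes have the largest polysome and total RNA medians, 0.67 and 0.43, and the collagens are split widest between batches, 2.99 against -0.62 in efficiency.

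The last 5 genes were chosen from earlier results of these data at 100 or 200 µM 4Ei-1 and are described over the doses of the same line with mifepristone. All cultures at 10 µM were in batch 3 and those without 4Ei-1 were spread over batches 1, 2 and 3, so these means are not balanced by batch, and 10 µM cannot be told apart from batch 3 against the higher doses. Efficiency of the nuclear exchange factor Rcc1 averaged -0.32 ± 0.42 (SD, n = 3) without 4Ei-1, then 0.36, 0.63, 0.19 and 0.89 ± 0.65 with 10, 50, 100 and 200 µM. That of the tRNA methyltransferase Trmo averaged -0.10 ± 0.20 without it, then -0.00, 0.74, 0.73 and 0.97 ± 0.19. The cultures at 50 and 200 µM overlapped for both genes, from 0.41 to 0.81 and from 0.25 to 1.56 for Rcc1 and from 0.54 to 0.92 and from 0.82 to 1.19 for Trmo. Kctd1 averaged 0.33, 0.07, -0.29, -0.68 and -0.63 over these 5 doses, the homeobox gene Shox2 1.24, 0.88, 0.64, 0.97 and 0.06, and the motor protein Myo1c 0.44, 0.47, 0.23, 1.46 and 0.43. Between 200 and 50 µM the differences were 0.26 ± 0.25 for Rcc1 (adjusted p = 0.699), 0.23 ± 0.20 for Trmo (adjusted p = 0.678) and -0.34 ± 0.21 for Kctd1 (adjusted p = 0.523). They were -0.58 ± 0.23 for Shox2 (adjusted p = 0.274) and 0.20 ± 0.21 for Myo1c (adjusted p = 0.732). None passed after adjustment. The half-widths of the 95% interval, which is unadjusted, were 0.42 to 0.52. A further change between these doses was thus not excluded for any of the 5. The interval of Shox2 did not reach 0, but the gene was chosen from earlier results of the same data. Its interval is therefore a description.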

How the data were processed

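Polysome-associated and total RNA of mouse NIH 3T3 derivatives were amplified, labelled with biotin and hybridised to Illumina bead arrays by the authors. The deposited non-normalized table holds, for 45281 probes, 1 linear intensity per array. Beside every intensity stands a detection p-value, as the deposited column names say (per the file headers). A second table, of log2 values processed by the authors in a way not given in the sources used here, served as an alternative. Groups, doses, replicate numbers and processing batches were taken from the labels.

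Background was removed by normexp correction in limma (version 3.58.1, R 4.3.3), which here inferred the noise from detection p-values; an offset of 16 was added, and log2 values were quantile-normalized across the 50 arrays. The platform annotation gave 34885 probes 1 symbol and 18 several and did not list 10378; gene IDs placed 34807 in the mouse RefSeq gene table. Each of 19057 genes was represented by its brightest probe on average. A gene was tested if 3 or more arrays detected it (detection p below 0.05), which left 12644 genes, of which 5064 were detected on all 12 arrays compared and 1398 on 0. Each measure was fitted over the 25 cultures with a term per group and fixed terms for batch; the contrast equals the difference of group means. p-values were adjusted over all 12644 genes. The number of arrays limits the precision. The fit was tested on simulated data.

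Named genes were Eif4e; the called genes detected on all 12 arrays; where these were under 6 in a measure, the smallest p among genes so detected, up to 6; the 3 smallest p of called genes not so detected; and from each list the called members or else those with the 2 smallest p, of which the text gives some. Unnamed predicted loci were passed over. Other genes are said to be chosen otherwise. Members and lists were chosen with earlier results of these data known.

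Deviations of same-numbered cultures from their group means correlated at 0.52, 0.11 and 0.19 in total RNA. The main fit took no pairs in any measure, and a replicate block over the 6 compared cultures was an alternative. Alternatives changed the cultures, batch term, background correction, normalization, filter, probe choice, prior and values.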

Additional observations from a re-analysis of the deposited data

How the results depend on the processing

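Counts of called genes depended on the processing, and the cause was not tested. They are given for efficiency, polysome RNA and total RNA in turn, beside 30, 31 and 5. With the 6 cultures alone, without or with the replicate block, they were 0, 0 and 0. They were also 0, 0 and 0 with median scaling and with the authors' log2 values. The unadjusted p was below 0.05 for 453, 396 and 378 genes with the 6 cultures and 345, 264 and 406 with the block added. It was so for 927, 610 and 418 with median scaling and 1464, 1328 and 833 with the authors' values. Without a batch term they were 7, 0 and 0 (unadjusted 1293, 723 and 640), and with batch 2 alone 164, 201 and 114. Without background correction polysome RNA gave 7 and total RNA 0, and with quantiles per fraction total RNA gave 3. With the fit itself repeated over genes detected on all 12 arrays the counts were 1, 0 and 0. With only the adjustment limited to these genes they were 0, 0 and 0. With every probe on its own efficiency gave 48 and total RNA 3, and with a trended robust prior polysome RNA gave 17. Leaving out 1 culture gave 47 to 128, 26 to 129 and 1 to 75, and 8 of 30, 10 of 31 and 0 of 5 calls passed in all 6 such fits. Leaving out both cultures with low collagen mRNA, chosen after seeing the data, gave 123, 115 and 51. With total RNA as a covariate of polysome RNA 32 genes passed, 8 of them among the 30. All called genes kept their sign in each omission and in the authors' values, which the choice of these genes on the same arrays favours. The difference of Eif4e changed sign in total RNA, at 0.0413 in batch 2 alone, 0.203 without both low-collagen cultures and -0.36 to 0.0935 without 1 culture, and in efficiency, at -0.53 to 0.19 without 1 culture; that of Rcc1 in efficiency did so without both low-collagen cultures, at -0.048. Correlations of same-numbered cultures were -0.19, -0.01 and -0.18 in efficiency and 0.12, 0.19 and -0.20 in polysome RNA. So few values cannot show whether same-numbered cultures were paired.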
